A study of Mus musculus with 4 samples.

Results

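The NR2F1 signal described here lies in the stretches on both sides of Nr2f1 and Nr2f2, the genes of the antibody's own target and of its closest relative. Members are all merged peak regions in mm10 chr13:76900000-79500000 and chr7:69000000-71700000 that were called in any library and lie outside the bodies of Nr2f1 and Nr2f2 and 20 kb on either side. The rule uses position and the presence of a call, and not the height of the signal. It finds 286 regions of the 263639 in the whole data set, 128 around Nr2f1 on chromosome 13 and 158 around Nr2f2 on chromosome 7. The stretches are called the Nr2f1 desert and the Nr2f2 desert below, with 2.55 Mb and 2.65 Mb left after the genes were taken out. Downstream of Nr2f1 the name does not describe the annotation: 5 protein-coding genes overlap the window there, and 65 of the 66 members on that side overlap the body of one.

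NR2F1 and NR2F2, also called COUP-TFI and COUP-TFII, are orphan nuclear receptors that act mostly as repressors and that pattern the developing brain, inner ear, vessels and heart. They bind DNA as dimers at repeats of the hexamer AGGTCA, and a direct repeat with 1 base between the copies is a favoured site. Genes of developmental regulators often lie alone in large stretches without other coding genes, and such stretches can hold distant enhancers of the gene they flank.

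In single-cell CUT&Tag an antibody brings the transposase Tn5 to a bound protein, and each cut it makes nearby is counted in the cell it came from. The 4 libraries hold cells of the fourth rhombomere (r4) of mouse hindbrain at embryonic day 10.5, from WT embryos and from embryos homozygous for the Fam5 single-nucleotide change (Fam5snv/snv), a knock-in next to Gata2 on a chromosome other than those of the deserts. All embryos carried the Isl1MN-GFP reporter of motor neurons. WT replicates 1 and 2 pooled 26 and 26 embryos, and Fam5snv/snv replicates 1 and 2 pooled 8 and 16. Each library is 1 pool. The paper states that GFP-positive cells were sorted for these libraries. Its general sorting method took in GFP-negative cells last, and whether that was done here is not stated. The barcodes can therefore include cells other than motor neurons.

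The libraries differ in depth and in the number of peaks called. WT held 3083946 and 3580517 cut sites in peaks, and Fam5snv/snv held 8967987 and 10341894. WT replicate 1 stands apart with 42168 called peaks, against 137996 to 170993 in the other libraries. Of its in-peak cut sites, 99.5% lie in regions that were called in all 4 libraries and tested, against 74.1% to 77.8% in Fam5snv/snv replicate 2 and WT replicate 2 and 79.9% in Fam5snv/snv replicate 1. WT replicate 1 called 45 of the 286 members, of which 43 were called in all 4 libraries. At the promoters of motor neuron genes, 7 of 8 listed genes had a tested region. With a single region taken for each gene, their levels summed to 770 to 929 CPM, of which Tbx2 held 257 to 369. CPM are cut sites per 1000000, scaled to the tested regions by TMM, the trimmed mean of M values. Of the listed rhombomere 4 genes, 3 of 3 had a tested region (sums of 232 to 291). For neural crest and mesenchyme it was 5 of 6 (83.0 to 141), for endothelium 2 of 6 (79.1 to 139) and for blood 3 of 5 (53.2 to 81.6), and Tie1 and Gata1 had no called promoter region. The endothelial sum was 89.7 and 79.1 in WT and 139 and 136 in Fam5snv/snv, and its part in the genotype values below was not tested.

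Both deserts hold copies of the same sequence under NR2F1 peaks. Only members were aligned, so any match had to lie under a called peak. Sequence outside the members was not compared between the deserts. When every member of the Nr2f1 desert was aligned with every member of the Nr2f2 desert, 2 pairs of stretches matched with an E value under 1e-10, and both pairs lie downstream of the genes, in the same orientation and in the same order. All 4 regions that hold them were called in all 4 libraries. In the genome, each of these stretches matched only itself and its partner with an E value under 0.01. The first pair is 92 bases long, with 74 bases identical (80.4%) and no gap. Its copies are shown because the same imperfect tandem repeat opens both. Capitals mark the 12 letters of the repeat, which reads AGGTCAAAGGTTA on the other strand and differs from a perfect repeat by 1 base.

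Nr2f1 desert, chr13:77897811-77897902, plus strand: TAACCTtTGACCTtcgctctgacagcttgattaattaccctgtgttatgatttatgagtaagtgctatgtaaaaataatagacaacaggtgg
Nr2f2 desert, chr7:69888488-69888579, plus strand: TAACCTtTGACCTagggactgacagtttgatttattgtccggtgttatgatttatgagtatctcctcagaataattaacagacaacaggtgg

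The second pair is 50 bases long with 45 identical (90.0%) and no gap. It holds no tandem repeat with up to 2 mismatches, and capitals mark its longest identical run, 14 bases at the end.

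Nr2f1 desert, chr13:78163744-78163793, plus strand: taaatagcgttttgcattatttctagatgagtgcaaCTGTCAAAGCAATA
Nr2f2 desert, chr7:70290824-70290873, plus strand: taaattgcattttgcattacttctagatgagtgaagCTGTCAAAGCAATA

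The peaks sit over these copies in every library. At the 92-base copy in the Nr2f2 desert, WT replicate 1 has a peak of only 528 bp, and the centre of the copy lies 8 bp from the centre of that peak. Around the same copy the peaks of WT replicate 2, Fam5snv/snv replicate 1 and Fam5snv/snv replicate 2 are 1700, 3966 and 4185 bp wide, and their centres are 233, 1378 and 1466 bp away. At the 92-base copy in the Nr2f1 desert the peaks are 1911, 3171, 4243 and 3547 bp wide in the same order of libraries, with centres 42, 335, 576 and 67 bp away. The 50-base copy in the Nr2f2 desert lies 36 to 157 bp from the centres of peaks of 465 to 1319 bp, and the one in the Nr2f1 desert lies 635 to 1022 bp from the centres of peaks of 1818 to 2807 bp. Cut sites were counted per whole peak, and the signal over the copies alone was not measured.

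**Figure D1:**
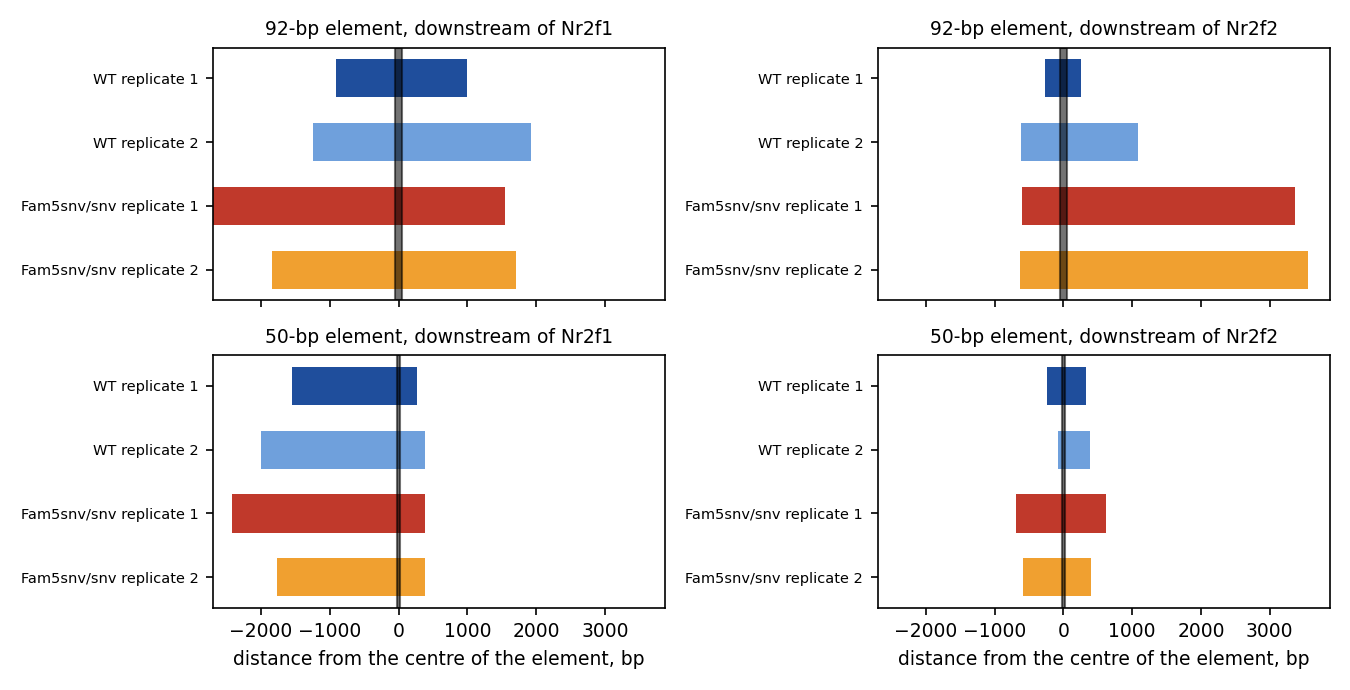
Extent of the called peak of each library (bars) around the 4 matched stretches (dark bands), by distance in bp from the centre of the stretch. Every stretch lies whole within a peak of all 4 libraries, and the narrowest peak of WT replicate 1, 528 bp, is centred 8 bp from the 92-base copy downstream of Nr2f2.

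The regions that hold the pairs differ in their level between the deserts. The region of the 92-base copy near Nr2f1, chr13:77895159-77899776, is an intron of Fam172a 302 kb downstream of the Nr2f1 start. It held 71.1 and 94.6 CPM in WT and 73.3 and 61.3 in Fam5snv/snv. Its partner, chr7:69887907-69892091, lies between genes 477 kb downstream of the Nr2f2 start. It held 13.7 and 36.9 in WT and 34.9 and 46.5 in Fam5snv/snv. The region near Nr2f1 was the higher of the pair in each library, and WT replicate 1 was the lowest library at the partner. The regions of the 50-base pair are chr13:78161343-78164149, over an exon of Fam172a and the noncoding gene Gm38604 and 37.0 kb downstream of the Nr2f1 start, with 52.9 and 49.2 in WT and 48.1 and 41.6 in Fam5snv/snv, and chr7:70290153-70291471, an intron of the noncoding gene Gm29683 and 75.9 kb downstream of the Nr2f2 start. The latter had 7.36 and 5.98 in WT and 12.3 and 8.72 in Fam5snv/snv, the lowest level of the 4 regions in each library.

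Tandem repeats of AGGTCA with 1 base between the copies were searched in all members on both strands. One member held a perfect repeat, in the 500 bp around its midpoint (0.350% of 286 members, against 0.497% of all 263639 regions over the same length). It is chr13:78112726-78113106, 86.8 kb downstream of the Nr2f1 start at the start of the noncoding gene C130051F05Rik within Fam172a. It was called only in Fam5snv/snv replicate 2, with 15 cut sites there. With at most 1 mismatch, 11 members (3.85%) held a repeat in that window, against 2.70% of all regions. They were 8 of 128 members (6.25%) in the Nr2f1 desert and 3 of 158 (1.90%) in the Nr2f2 desert, a difference that was not tested. With up to 2 mismatches it was 31 members (10.8%) against 11.5% of all regions, and the hexamer AGGTCA itself was found in 110 members (38.5%) against 36.2%. Over both deserts together, the shares are close to those of all regions over the same length. Over their whole length, 4 of the 43 members called in all 4 libraries held a repeat with at most 1 mismatch (9.30%, against 10.1% of all regions called in all 4). They are the regions of the 92-base pair, the strongest member of the Nr2f2 desert and a weaker intronic member in Fam172a, chr13:77957029-77958435. The perfect repeat and the latter 2 imperfect ones are shown with 24 bases on either side, with the letters of the repeat in capitals.

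Nr2f1 desert, perfect, chr13:78112854-78112914, plus strand: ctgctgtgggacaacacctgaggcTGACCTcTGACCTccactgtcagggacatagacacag
Nr2f2 desert, strongest member, chr7:70846187-70846247, plus strand: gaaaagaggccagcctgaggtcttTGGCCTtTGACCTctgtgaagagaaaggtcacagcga
Nr2f1 desert, intron of Fam172a, chr13:77957756-77957816, plus strand: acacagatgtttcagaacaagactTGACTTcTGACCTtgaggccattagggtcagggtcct

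The repeat in the strongest member of the Nr2f2 desert reads AGGTCAAAGGCCA on the minus strand, lies 168 bp from the midpoint of the region, and has a further AGGTCA beside it on the plus strand, 146 bp from the midpoint. The strongest member of the Nr2f1 desert holds 3 copies of AGGTCA and no tandem repeat with up to 2 mismatches. The copy nearest to its midpoint, 628 bp away, is shown in capitals below for comparison with the sequences above.

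Nr2f1 desert, strongest member, chr13:78937784-78937843, plus strand: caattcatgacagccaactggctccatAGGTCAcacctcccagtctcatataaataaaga

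A few strong regions far from any coding gene carry much of the signal. The strongest member of the Nr2f2 desert, chr7:70844034-70848736, is 4703 bp wide, lies between genes and is 480 kb upstream of the Nr2f2 start. It held 743 and 660 cut sites in WT and 1346 and 1478 in Fam5snv/snv, or 260, 232, 184 and 187 CPM. It ranked 162 among 35770 tested regions and 12 among the 4406 tested regions over 100 kb from the start of a coding gene. Both WT libraries lay above both Fam5snv/snv libraries. The log2 fold change (Fam5snv/snv minus WT) was −0.41 ± 0.22 (SE). Its adjusted p was 0.603 in edgeR's quasi-likelihood test, so the difference did not pass. With the peak length covered in each library as an offset in the fit, it was −0.01 relative to the median of all tested regions. The widest region over the Nr2f2 gene body itself, chr7:70354612-70363214, had less signal, with 94.6, 116, 97.5 and 94.6 CPM in the same order. A separate region over the annotated Nr2f2 start, chr7:70364663-70366768, had 1.05, 10.9, 7.93 and 16.9.

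The strongest member of the Nr2f1 desert, chr13:78935302-78939070, lies between genes 737 kb upstream of the Nr2f1 start. It held 584 and 429 cut sites in WT and 1142 and 1205 in Fam5snv/snv, or 205, 151, 156 and 152 CPM. These levels were near those of the region over the Nr2f1 promoter, chr13:78197403-78205997, with 197, 152, 160 and 161. WT replicate 1 stood above the other libraries, which lay close together. The log2 fold change was −0.20 ± 0.23 (SE), with an adjusted p of 0.794 (edgeR), and without WT replicate 1 it was 0.02. The second member of the Nr2f1 desert, chr13:79135800-79139172, is 938 kb upstream and between genes, with 136 and 109 CPM in WT and 99.2 and 105 in Fam5snv/snv.

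**Figure D2:**
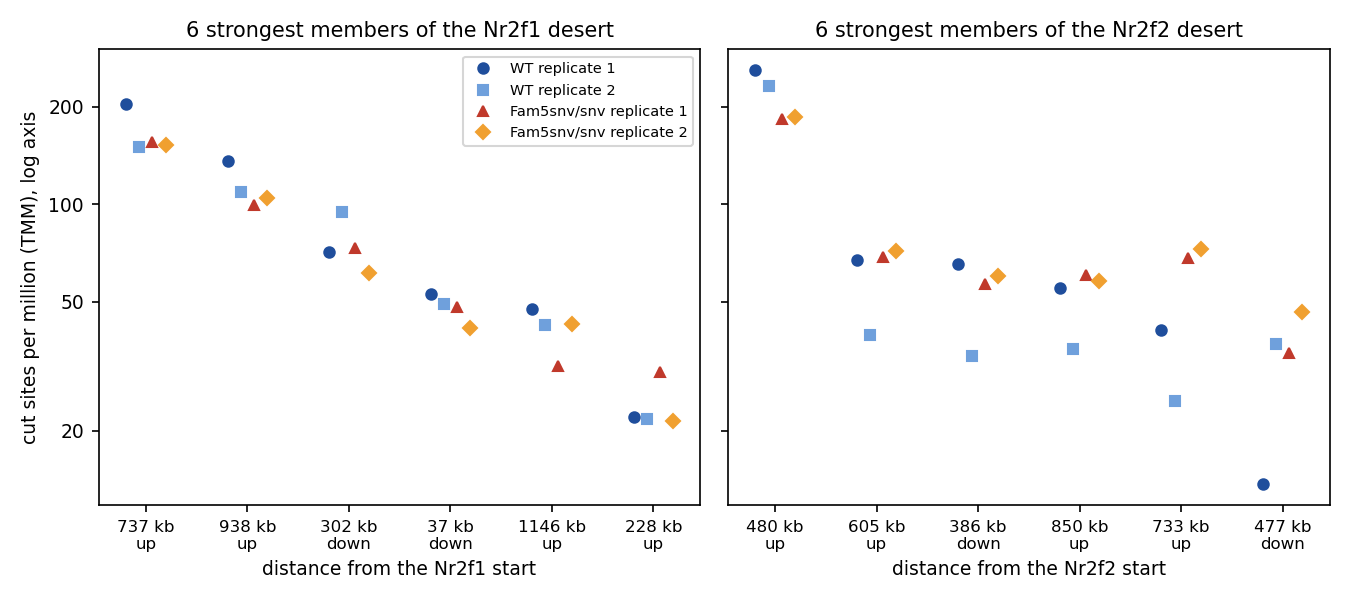
CPM (cut sites per 1000000 after TMM, log axis) of the 6 strongest members of each desert that were called in all 4 libraries, by distance from the start of the gene, with 1 symbol for each library. The region 480 kb upstream of Nr2f2 (184 to 260) and the region 737 kb upstream of Nr2f1 (151 to 205) are the highest of their deserts.

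In the Nr2f1 desert the region 737 kb upstream alone took 32.8% and 21.1% of the desert's cut sites in WT and 23.2% and 20.7% in Fam5snv/snv. Together with the region 938 kb upstream it took 54.6%, 36.3%, 37.9% and 34.8%. In the Nr2f2 desert the region 480 kb upstream took 32.7% and 27.1% in WT and 17.6% and 17.3% in Fam5snv/snv, so its share was lower in both Fam5snv/snv libraries than in both WT libraries. The peaks called in that desert covered 20486 and 52690 bp in WT and 76601 and 89326 bp in Fam5snv/snv. The part of this covered length in the shares was not tested. More of the signal lay upstream than downstream of the genes in every library, 62.7% to 76.9% of the cut sites of the Nr2f1 desert and 64.3% to 69.3% of those of the Nr2f2 desert, with the upstream and downstream stretches of nearly equal length. Near the genes the upstream side was weaker, and from 0 to 250 kb upstream the members together held 20.4 to 33.5 in-peak CPM (cut sites per 1000000 cut sites in all peaks of the library, without TMM) around Nr2f1 and 13.7 to 32.6 around Nr2f2. The strip from 500 to 750 kb upstream of Nr2f1 held 129 to 197, and the strip from 250 to 500 kb upstream of Nr2f2 held 201 to 286.

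**Figure D3:**
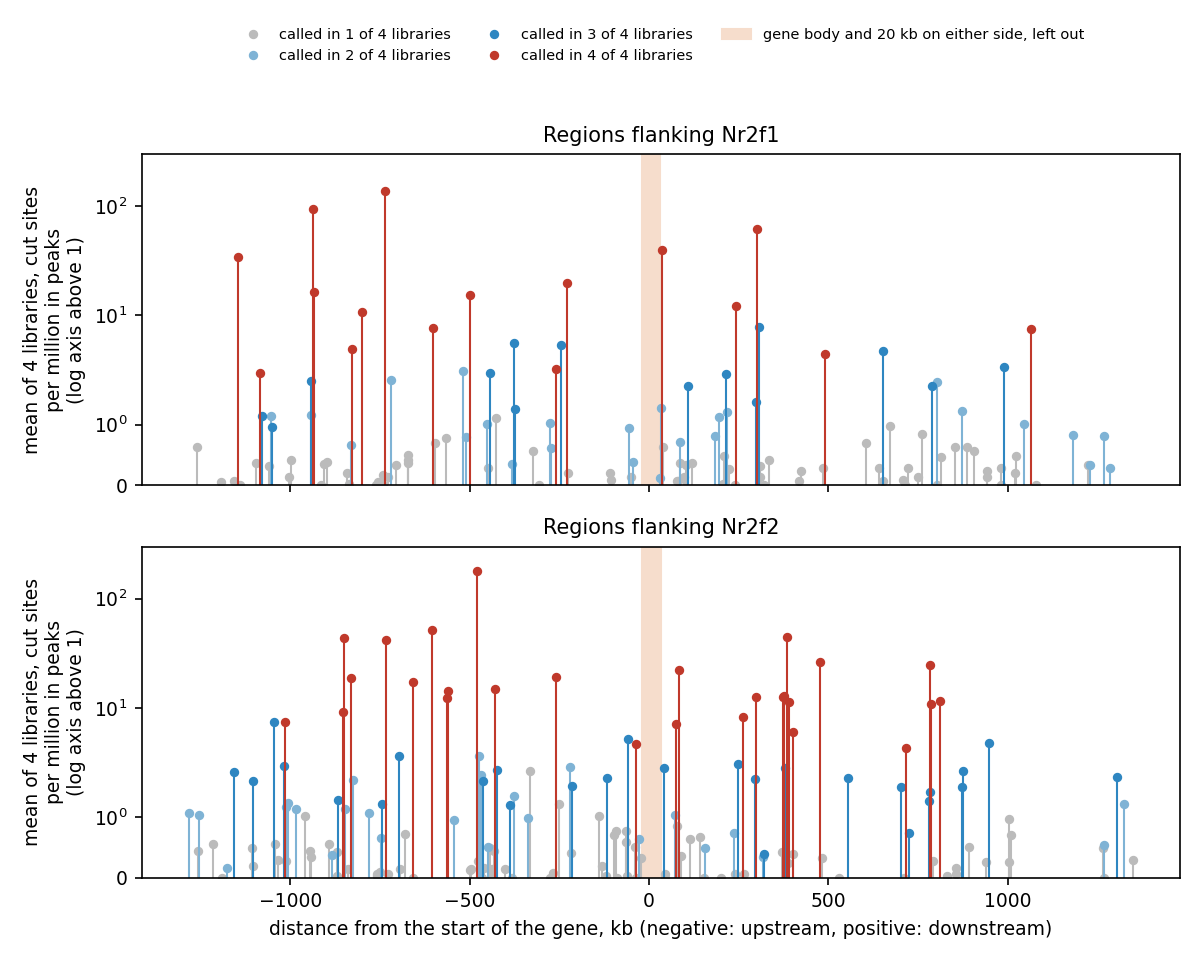
Each member by its distance from the start of the gene in kb (negative values upstream) and its mean over the 4 libraries in in-peak CPM (log axis above 1), coloured by the number of libraries that called it. Shaded bands mark the gene bodies and margins left out, and the tallest regions on both sides of each gene were called in all 4 libraries.

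The other leading members were the following. In the Nr2f1 desert, chr13:79343692-79347397 is the member called in all 4 libraries that lies farthest from the gene, 1146 kb upstream and between genes, with 47.6 and 42.6 CPM in WT and 31.6 and 42.6 in Fam5snv/snv. The region chr13:78425934-78428790, 228 kb upstream at the start of the noncoding gene Gm31946, had 22.1 and 21.8 in WT and 30.3 and 21.5 in Fam5snv/snv. The genotypes overlapped at both. In the Nr2f2 desert, chr7:70970931-70973050, over an exon of the noncoding gene Gm42397 and 605 kb upstream, had 67.3 and 39.4 in WT and 68.9 and 71.8 in Fam5snv/snv. The region chr7:69979834-69981348, between genes and 386 kb downstream, had 65.5, 34.1, 56.7 and 60.1, and chr7:71215529-71217948, at the start of the noncoding gene 6030442E23Rik and 850 kb upstream, had 55.4, 35.9, 60.4 and 58.0. WT replicate 2 was the lowest library at these 3 members. The farthest member of the Nr2f2 desert in all 4 lists of peaks, chr7:71380532-71381900, an intron of the noncoding gene Gm29295 at 1014 kb upstream, held 0 cut sites of WT replicate 1, where a peak was called but no cell barcode had a cut, then 31, 111 and 90.

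The single nearest member on each side of each gene was weak, but stronger regions lay close by. One was the member 37.0 kb downstream of the Nr2f1 start, given above. Inside the 20 kb margins, chr13:78180981-78188681 held 39.6 to 66.5 CPM and chr7:70345639-70351790 held 60.1 to 75.3 CPM over the libraries. Downstream of Nr2f1 the nearest member, chr13:78168085-78168256, held 1 cut site in WT replicate 2 and 2 in Fam5snv/snv replicate 2, and upstream of it chr13:78243448-78243766 held 2 and 10 in the same libraries. Downstream of Nr2f2 the nearest, chr7:70325321-70326712, held 23 in WT replicate 2 and 49 in Fam5snv/snv replicate 2, and upstream of it chr7:70387846-70388119 held 12 in Fam5snv/snv replicate 1 alone. Promoters of coding genes within the windows had little signal. The region over the shared start of Slf1, which works in DNA repair, and 2210408I21Rik, chr13:77134816-77136075, had 3.85 and 13.01 CPM in WT and 9.30 and 11.1 in Fam5snv/snv, and that of Fam172a, chr13:77708369-77709125, had 5.61, 3.87, 5.06 and 7.08. The region over the start of Gm10295 upstream of Nr2f2, chr7:71351307-71351828, was called only in the Fam5snv/snv libraries, with 23 cut sites in each. Of the first coding genes past the 4 edges of the windows, 2 had a tested promoter region. That of Arrdc3, upstream of Nr2f1, had 245 and 214 in WT and 169 and 172 in Fam5snv/snv, and that of Arrdc4, downstream of Nr2f2, had 97.7, 76.0, 81.7 and 64.6. Fam81b, downstream of Nr2f1, had no called promoter region, and Mctp2, upstream of Nr2f2, had 2, neither of them called in all 4 libraries.

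The stretches around the genes are not alike in their annotation. The window around Nr2f1 overlaps 6 protein-coding genes, Nr2f1 among them, and the other 5 (Mctp1, Slf1, 2210408I21Rik, Fam172a and Pou5f2) all lie downstream, while no coding gene lies upstream within the window. The window around Nr2f2 overlaps only Nr2f2 and Gm10295. Of the members, 65 of 128 in the Nr2f1 desert and 1 of 158 in the Nr2f2 desert overlap the body of a coding gene, and 85 and 125 lie over 100 kb from the start of any. Between genes lie 52 and 93 members. The longest stretch with no member was 117 kb in the Nr2f1 desert, chr13:78307854-78425062, and 257 kb in the Nr2f2 desert, chr7:69100152-69357327.

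In all, 43 members (15.0%) were called in every library. In the Nr2f1 desert 16 of 128 members (12.5%) and in the Nr2f2 desert 27 of 158 (17.1%) were called in all 4, against 13.6% of all regions and 9.45% of regions over 100 kb from a coding start. Members called in 1 library were 73 (57.0%) and 79 (50%), against 58.8% of all regions. The latter were narrow, with a median of 190 bp and 204 bp and a median of 6 cut sites in each desert, while members called in all 4 had medians of 1367 bp and 1715 bp and of 340 and 373 cut sites over the 4 libraries together. Most of the cut sites lie in the members called in all 4 libraries, 100% in WT replicate 1 and 72.0% to 82.2% in the others in the Nr2f1 desert, and 99.2% and 78.5% to 80.1% in the Nr2f2 desert. Libraries called 16, 78, 59 and 76 members of the Nr2f1 desert and 29, 85, 97 and 107 of the Nr2f2 desert, in the order WT replicates 1 and 2 and Fam5snv/snv replicates 1 and 2. WT replicate 1 had the fewest in both.

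The deserts were compared with each other within each library, so no scaling between libraries was needed. Cut sites were counted only in the peaks that each library called, so the ratios can still depend on its depth. That part was not tested. The Nr2f1 desert held 6.67 and 31.0 called peaks per Mb in WT and 23.5 and 30.2 in Fam5snv/snv, and the Nr2f2 desert held 11.3 and 33.6 in WT and 37.0 and 40.8 in Fam5snv/snv. The Nr2f1 desert had 226 and 223 in-peak CPM per Mb in WT and 216 and 221 in Fam5snv/snv, and the Nr2f2 desert had 279 and 257 in WT and 322 and 312 in Fam5snv/snv. The Nr2f2 desert was the denser in every library by both measures, and both deserts lay below the mean of the genome, which was 367 in-peak CPM per Mb.

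The ratio of the Nr2f1 to the Nr2f2 desert in cut sites per Mb was 0.812 and 0.868 in WT and 0.670 and 0.710 in Fam5snv/snv. Its mean log2 was −0.39 ± 0.17 (SD, n = 4 libraries), with an exact two-sided sign-flip p of 0.13, the smallest that 4 libraries can give, so the test cannot pass at 0.05. The ratio of peaks per Mb was 0.588 to 0.921 and that of covered length was 0.611 to 0.811. Cut sites per kb of called peak were slightly higher in the Nr2f1 desert, with ratios of 1.00 to 1.10. Each of these 4 measures pointed the same way in all 4 libraries, with an exact p of 0.13 and the same adjusted over the 4. When the members over coding genes and that length were left out, the mean log2 ratio in cut sites per Mb was −0.05 ± 0.19 (SD, n = 4 libraries), with an exact p of 0.75.

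**Figure D4:**
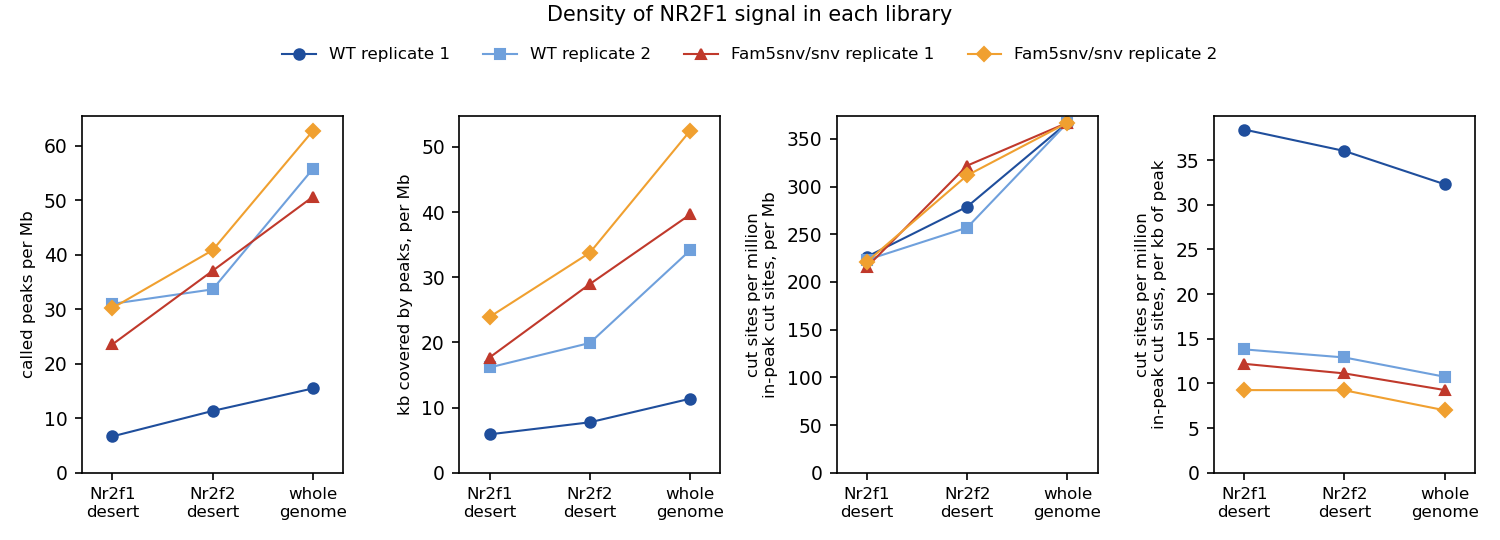
Called peaks per Mb, kb covered by peaks per Mb, in-peak CPM per Mb, and the same per kb of called peak, in each desert and over the whole genome, with 1 symbol for each library and lines joining the values of a library. In the first 3 measures every library is lower in the Nr2f1 desert than in the Nr2f2 desert, and WT replicate 1 is apart in peaks, covered length and signal per kb of peak.

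The totals of the deserts were then compared between genotypes. The Nr2f1 desert held 577 and 569 in-peak CPM in WT and 550 and 564 in Fam5snv/snv. The log2 difference was −0.04, the groups did not overlap, and the exact permutation p was 0.33, the smallest that 2 libraries against 2 allow. The Nr2f2 desert held 738 and 680 in WT and 852 and 825 in Fam5snv/snv. The log2 difference was 0.24, again with no overlap and an exact permutation p of 0.33. The difference of these effects was −0.28 with an exact permutation p of 0.33. Beside this, the peaks called in the Nr2f2 desert covered 20486 and 52690 bp in WT and 76601 and 89326 bp in Fam5snv/snv, and in the Nr2f1 desert 15027 and 41182 bp against 45081 and 60940 bp. Per kb of called peak both deserts were lower in Fam5snv/snv, by a log2 difference of −1.12 around Nr2f1 and −1.09 around Nr2f2. The whole genome was lower as well, with 32.3 and 10.7 in-peak CPM per kb of peak in WT and 9.26 and 6.99 in Fam5snv/snv. WT replicate 1 stood apart, with 38.4 around Nr2f1 and 36.0 around Nr2f2, against 13.8 and 12.9 in WT replicate 2. Over the members called in all 4 libraries the log2 difference was −0.26 around Nr2f1 and 0.08 around Nr2f2.

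Of the 286 members, 43 passed the filter for the fit over all regions (called in all 4 libraries, 2 or more of them with 10 or more cut sites), 16 in the Nr2f1 desert and 27 in the Nr2f2 desert. None passed an adjusted p of 0.05 in edgeR, where 0% of all 35770 tested regions did. At an unadjusted p under 0.05, 3 members were higher in Fam5snv/snv (5.29% of all tested regions were) and 0 were lower (3.37% of all). DESeq2 called 2 members higher (1.02% of all tested regions) and 0 lower (0.542% of all). The genotypes did not overlap at 18 members that were higher in Fam5snv/snv, against 23.2% of all tested regions, and at 7 that were lower, against 21.4%. Of the former, 15 of 27 tested members lie in the Nr2f2 desert and 3 of 16 in the Nr2f1 desert, and of the latter 4 and 3. The median log2 fold change was −0.02 around Nr2f1 and 0.40 around Nr2f2, beside 0.02 over all tested regions and 0.28 over those far from coding starts. Leaving out WT replicate 1 gave a median of 0.61 around Nr2f2, and leaving out WT replicate 2 gave 0.20. With the peak length covered in each library as an offset, the medians relative to that of all tested regions were 0.30 around Nr2f1 and 0.15 around Nr2f2, so the order of the deserts turned. Scaled by all in-peak cut sites, the median around Nr2f2 was 0.25.

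All 3 members of smallest p that were higher in Fam5snv/snv lie upstream of Nr2f2. The region chr7:71097615-71101364, at the starts of the noncoding genes Gm36011 and Gm39033 and 733 kb upstream, held 41.0 and 24.6 CPM in WT and 68.4 and 73.0 in Fam5snv/snv. Its log2 fold change was 1.11 ± 0.27 (SE), with an adjusted p of 0.573 in edgeR and 0.0142 in DESeq2. The region chr7:71197766-71199733, between genes 832 kb upstream, held 16.5 and 7.03 in WT and 30.6 and 38.2 in Fam5snv/snv, and its log2 fold change was 1.55 ± 0.42 (SE), with an adjusted p of 0.573 in edgeR and 0.0353 in DESeq2. At both, WT and Fam5snv/snv did not overlap, and leaving out 1 library at a time gave 0.79 to 1.51 and 1.06 to 2.28. Without a WT library the spread comes from the 2 Fam5snv/snv libraries alone, and the lone WT library is assumed to vary like them. The adjusted p of both members was then 0.00218 to 0.0240 in edgeR, where 1492 (without WT replicate 1) and 4094 (without WT replicate 2) of all tested regions were called higher. Without either Fam5snv/snv library the adjusted p was 0.999 to 1.000. Their peaks were wider in Fam5snv/snv by log2 ratios of 1.25 and 1.40, beside a median of 0.70 over all tested regions. With the covered length as an offset, their log2 fold changes relative to the median of all tested regions were 0.49 and 0.94, and neither passed.

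The third, chr7:71022605-71024731, an intron of Gm42397 at 657 kb upstream, held 18.2 and 13.01 in WT and 24.6 and 28.7 in Fam5snv/snv, with a log2 fold change of 0.77 ± 0.32 (SE) and an adjusted p of 0.574 (edgeR). The 3 members of smallest p among those lower in Fam5snv/snv were the region 480 kb upstream of Nr2f2, chr7:70624070-70625805 and the Fam172a intron of the 92-base copy. At chr7:70624070-70625805, between genes 258 kb upstream of Nr2f2, the values were 32.9 and 20.05 in WT and 19.1 and 18.6 in Fam5snv/snv, with a log2 fold change of −0.49 ± 0.33 (SE) and an adjusted p of 0.649 (edgeR). None of these differences passed.

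**Figure D5:**
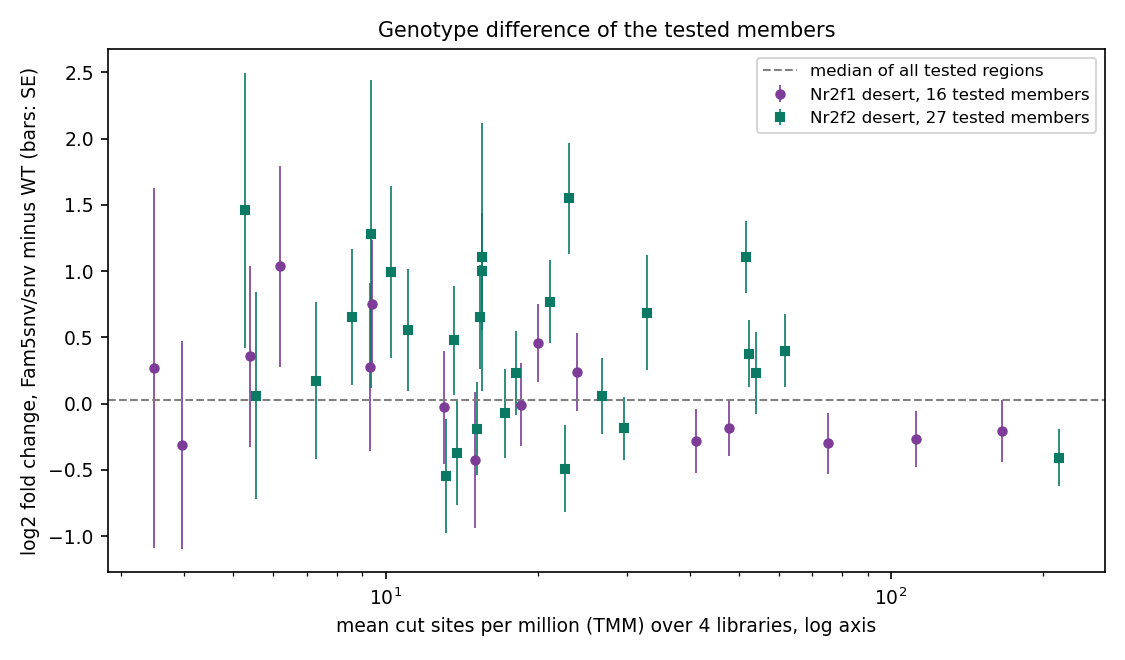
Log2 fold change (Fam5snv/snv minus WT, bars are SE) of the 43 tested members against their mean CPM (log axis), with the median of all tested regions, 0.02, as a dashed line. Members of the Nr2f2 desert range from −0.54 to 1.55 and those of the Nr2f1 desert from −0.42 to 1.04.

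The strongest members drew their cut sites from many cells. The region 480 kb upstream of Nr2f2 had a cut in 313 of 2572 and 254 of 1377 barcodes in WT and in 497 of 2274 and 559 of 2740 in Fam5snv/snv, with at most 14 cut sites in a barcode. After each barcode was thinned to 567 cut sites, which left out 641 barcodes of WT replicate 1 and 0 of the others, a cut remained in 9.22% (exact 95% interval 7.96 to 10.6) and 8.13% (6.74 to 9.70) in WT and 6.51% (5.53 to 7.60) and 6.97% (6.05 to 7.99) in Fam5snv/snv. At the region 737 kb upstream of Nr2f1 thinning left 6.89% and 5.88% in WT and 5.89% and 5.69% in Fam5snv/snv. These intervals cover counting error only, and the shares are of all barcodes, since cells were not assigned to types. A barcode could score only inside peaks that its own library called, and thinning does not even out their length. As given above, called peaks covered less of each desert in either WT library than in either Fam5snv/snv library. How far this length enters the thinned values of this paragraph was not tested. Over all members, 19.8% and 23.6% of thinned WT barcodes and 24.5% and 24.2% of thinned Fam5snv/snv barcodes had a cut in the Nr2f1 desert, and 26.3% and 26.4% against 34.0% and 34.3% had one in the Nr2f2 desert. Unthinned, the shares were 26.4%, 46.0%, 56.2% and 59.6% in the Nr2f1 desert and 32.4%, 51.8%, 66.9% and 68.3% in the Nr2f2 desert, in the same order of libraries.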

How the data were processed

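Anti-NR2F1 single-cell CUT&Tag was performed by the authors on 2 WT and 2 Fam5snv/snv libraries. For each library they deposited cell barcodes, called peaks (positions without score, unit other) and a matrix of whole-number counts (cut sites by peak and cell). The submitters' notes name Cell Ranger ATAC and mm10, and the matrix headers give version 1.2.0. The paper's methods name a later version of that software for these data, and the difference was not resolved. Peaks were called by the authors in each library separately.

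Counts were summed over barcodes, without clustering, doublet removal or a filter on cells. Libraries shared 3 to 12 barcodes per pair. Peaks overlapping by 1 bp were merged. Regions called in all 4 libraries, with 10 or more cut sites in 2 or more (35770), were tested with edgeR 4.0.16 (quasi-likelihood, TMM, no block, R 4.3.3) and Benjamini-Hochberg adjustment. DESeq2 1.42.0 was an alternative. Desert totals were compared by exact permutation and sign-flip tests over libraries. The edgeR script was tested on simulated data. Median tested regions held 42 and 47 cut sites in WT and 126 and 139 in Fam5snv/snv. P-values measure the spread between these pools.

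Genes are from GENCODE and sequence from GRCm38.p6. Members were aligned with BLAST 2.17.0 (word size 9, soft-masked query bases left out), and genome copies were searched with word size 11. Named regions were, per desert, the 6 strongest called in all 4 libraries, those nearest the gene, the widest and the farthest, over both deserts the 3 of smallest p in each direction, and every member with a perfect repeat or over a coding start. The matched sequences and their regions were chosen after their values were seen. Members and lists were chosen with earlier results of these data known.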

Additional observations from a re-analysis of the deposited data

Results flagged for a closer look

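The effect of genotype on the desert totals went opposite ways in the deserts: both Fam5snv/snv libraries lay below both WT libraries around Nr2f1 and above both around Nr2f2. The difference between the effects was −0.28 on the log2 scale, and its exact permutation p of 0.33 is the smallest that 2 libraries against 2 can give. Divided by the cut sites in the tested regions alone, the same totals gave a log2 difference of 0.15 around Nr2f1 and 0.44 around Nr2f2. There the totals still hold members that were not tested, while the divisor leaves such regions out. Tested regions held 99.5% of the in-peak cut sites of WT replicate 1 and 74.1% to 79.9% of those of the other libraries. Over members called in all 4 libraries, per in-peak cut sites, the log2 differences were −0.26 and 0.085. Totals of tested members over cut sites in tested regions were not compared.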

How the results depend on the processing

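Counts of all tested regions past an adjusted p of 0.05, 0 higher and 0 lower, were 366 and 194 with DESeq2, and leaving out 1 library gave 0 to 4094 higher (1492 without WT replicate 1, 4094 without WT replicate 2) and 0 to 2221 lower (419 and 2221), with 0 without either Fam5snv/snv library. In these fits the lone library of a genotype is assumed to vary like the pair of the other. With the replicate number as a block (replicate block) they were 0 and 0, with 1671 higher and 965 lower at an unadjusted p under 0.05 against 1892 and 1206. The deviations of WT replicate 1 and Fam5snv/snv replicate 1 from their genotype means correlated across regions with r = 0.029. With 2 libraries per genotype the other pair must give the same value. This value cannot tell whether same-numbered libraries were prepared together. Unadjusted counts were 8708 higher and 0 lower when scaled by barcodes, and 4 higher and 4545 lower with the covered length as an offset. Under these scalings the median of all regions was 0.97 and −0.76 (log2), against 0.02, and members are given relative to it.

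The log2 difference of the Nr2f1 desert total, −0.04, was −0.26 over members called in all 4 libraries, −0.067 without coding gene bodies, −1.12 per kb of called peak, 1.09 per barcode, 0.15 scaled to the tested regions and 0.059 without the strongest member of each desert, a choice made after seeing the data. That of the Nr2f2 desert, 0.24, was 0.085, −1.09 (per kb), 1.37, 0.44 and 0.48 under the same settings and 0.24 without coding gene bodies. Within same-numbered replicates (replicate block) they were −0.04 and 0.24. Leaving out 1 library gave −0.06 to −0.02 and 0.18 to 0.30. The ratio of the deserts, −0.39, was −0.050 without coding gene bodies, 0.082 per kb of called peak and −0.46 to −0.33 without 1 library. The difference of the effects, −0.28, was −0.027 per kb of called peak, −0.42 without the strongest members and −0.33 to −0.24 without 1 library. The share with a perfect repeat, 0.350%, was 10.8% with up to 2 mismatches.

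Named fold changes that changed sign were chr13:77134816-77136075 (−0.36 to 1.40 over libraries left out, −0.36 without WT replicate 1), chr13:78935302-78939070 (−0.41 to 0.024, 0.024 without WT replicate 1), chr7:69979834-69981348 (−0.17 to 0.77, −0.17 without WT replicate 2) and chr13:78425934-78428790 (−0.029 to 0.47, −0.029 without Fam5snv/snv replicate 1). With the covered length as an offset, chr13:78161343-78164149 (0.31), chr13:78935302-78939070 (0.41), chr13:79343692-79347397 (0.33) and chr7:69887907-69892091 (−0.13) changed sign. The cause of these changes was not tested. The part of depth in the 0 calls was not tested, and with a minimum of 50 cut sites they were 0 and 0 as well.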
